A study of Mus musculus with 6 samples.

Results

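The C-type lectin receptor family was examined here as the 32 genes whose symbol in the platform annotation begins with Clec and a number, out of 19505 genes measured. Each of the 32 had a single probe set, so no choice between probe sets was needed. Mouse RAW264.7 cells, an established macrophage line, were grown for 3 days on a modified PEEK surface or on pristine PEEK (polyetheretherketone, an implant polymer), and total RNA was hybridised to 6 Affymetrix arrays, 3 per surface. The pristine polymer was the control, the labels do not say how the surface was modified, and no genotype or added agent is named for either group. The labels do not state whether the 3 arrays per surface stand for independent cultures; the p-values reflect only how far these arrays spread, and that spread may be technical. Values are log2 signals, on which a difference of 1 is a 2-fold difference, and all changes are modified minus pristine PEEK. The comparison asks how contact with the modified surface altered the cells' lectin receptor transcripts.

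C-type lectin receptors are proteins with a carbohydrate-recognition type of domain, many of which let macrophages and dendritic cells sense fungi, mycobacteria and dead cells. Activating members pair with small adaptor proteins that carry tyrosine activation motifs, the Fc receptor gamma chain (Fcer1g) or DAP12 (Tyrobp), or carry a short motif of their own. These recruit the kinase Syk, which signals through the Card9, Bcl10 and Malt1 complex to NF-kB. Inhibitory members recruit phosphatases such as SHP-1 (Ptpn6) instead, and further members bind ligands on other cells or are secreted.

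On modified PEEK, Clec4e (Mincle, a receptor for mycobacterial glycolipid and for a protein of dead cells) and Clec4n (Dectin-2, a receptor for fungal mannans) fell, and Clec4a3, one of the Clec4a group, rose. Clec4e was 1.58-fold lower, Clec4n 1.82-fold lower and Clec4a3 1.85-fold higher. Of these calls, only that of Clec4e held whichever array was left out, and it did not pass when arrays were scaled to their poly-A spikes. Clec4n had a mean of 3.75 on modified PEEK, next to the background of 3.72 described below. The other 29 members did not pass the limma test at an adjusted p under 0.05, and no member's difference reached 2-fold. Over all genes tested, 10.4% passed, 5.24% as higher and 5.15% as lower, so 3 of 32 is a share near the background. The median change was 0.0060 over the 32 members and 0.0088 over all genes.

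Of the 3 members that passed, Clec4n had no promoter window in the RefSeq table. The promoters of the other members that passed, Clec4e and Clec4a3, which changed in opposite directions, are printed. Each is the 250 bases before the gene's start (5′ to 3′ on the gene's strand, RefSeq, GRCm38.p6), and capitals mark matches, on either strand, to GAGGAA (a core of sites for the macrophage factor PU.1) or TTGCNNAA (a C/EBP type site). TGANTCA (an AP-1 site) was also searched and is in neither.
Clec4e, chr6:123289872-123290121, minus strand: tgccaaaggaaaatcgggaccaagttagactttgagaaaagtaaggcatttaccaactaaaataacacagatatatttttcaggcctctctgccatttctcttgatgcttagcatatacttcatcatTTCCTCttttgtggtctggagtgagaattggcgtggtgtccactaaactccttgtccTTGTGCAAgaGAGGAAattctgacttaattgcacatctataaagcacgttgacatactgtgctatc
Clec4a3, chr6:122952265-122952514, plus strand: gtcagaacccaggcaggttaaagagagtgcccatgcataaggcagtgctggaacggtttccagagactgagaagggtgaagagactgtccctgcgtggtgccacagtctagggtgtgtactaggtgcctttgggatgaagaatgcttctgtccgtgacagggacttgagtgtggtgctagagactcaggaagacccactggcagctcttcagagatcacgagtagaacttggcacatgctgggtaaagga
In the Clec4e window GAGGAA matched at 2 places, which begin 123 and 56 bases before the start, and TTGCNNAA at 1 place, 66 bases before it. The Clec4a3 window held none of the 3 motifs. Of 27025 promoter windows of this length, GAGGAA was in 23.1%, TTGCNNAA in 9.6% and TGANTCA in 6.9%. Among the 25 members with a window in the RefSeq table, 12 held GAGGAA, 4 TTGCNNAA and 5 TGANTCA. The printed matches do not overlap each other, and a match describes the letters only. Whether matches go with the direction of change across the members was not tested.

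Before the members are described, the arrays were checked. The 6 arrays had medians over genes of 4.98 to 5.10 in log2 signal, and their number limits the precision of every value. The background used here, 3.72, is the 95th percentile of the means of 1412 genes for odorant and pheromone receptors, which serve sensory neurons. Of 10 macrophage markers measured, 8 were above background on both surfaces, with Lyz2 (lysozyme) at 12.03 on modified and 11.95 on pristine PEEK. So were 6 of 9 osteoclast markers, and these counts do not set the macrophage and osteoclast lists apart. In contrast, 7 of 9 neutrophil, 6 of 9 lymphocyte and 6 of 9 endothelial and fibroblast markers were below background on both. Of the 10 macrophage markers 3 were higher and 2 lower (limma), beside 5.24% and 5.15% of all genes. Aif1 (1.06), Adgre1 (0.54) and Mertk (0.36, below background on both surfaces) were higher. Fcgr1 (-0.85) and Itgam (-0.59) were lower. Of 9 osteoclast markers 4 were lower, 0 higher and 5 did not pass (limma; 5 lower and 1 higher at an unadjusted p under 0.05), where 5.15% of all genes were lower, or 11.4% unadjusted, with a list mean per array of 5.05 to 5.12 on modified and 5.75 to 5.88 on pristine PEEK. Of 9 dendritic cell markers, Itgax was lower (-1.34) and 4 were below background on both surfaces, with list means of 3.62 to 3.87 on modified and 3.87 to 3.95 on pristine PEEK. The part of these shifts in the results below was not tested. In RNA from whole cultures, fewer cells that express a gene and less RNA per cell cannot be told apart.

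Of the 32 members, 19 had mean signals above background on both surfaces and 13 on neither, a share of 59.4% above background beside 67.8% of all genes tested. On single arrays, 16 members were above background on all 6, 10 on none and 6 on some. Signals of different probe sets depend on the probes, so their order is not an order of transcript amounts. The plot of signal by array shows 4 members near a log2 signal of 10 on both surfaces, Clec4d, Clec4e, Clec5a and Clec12a, with the rest below 7.

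**Figure D1:**
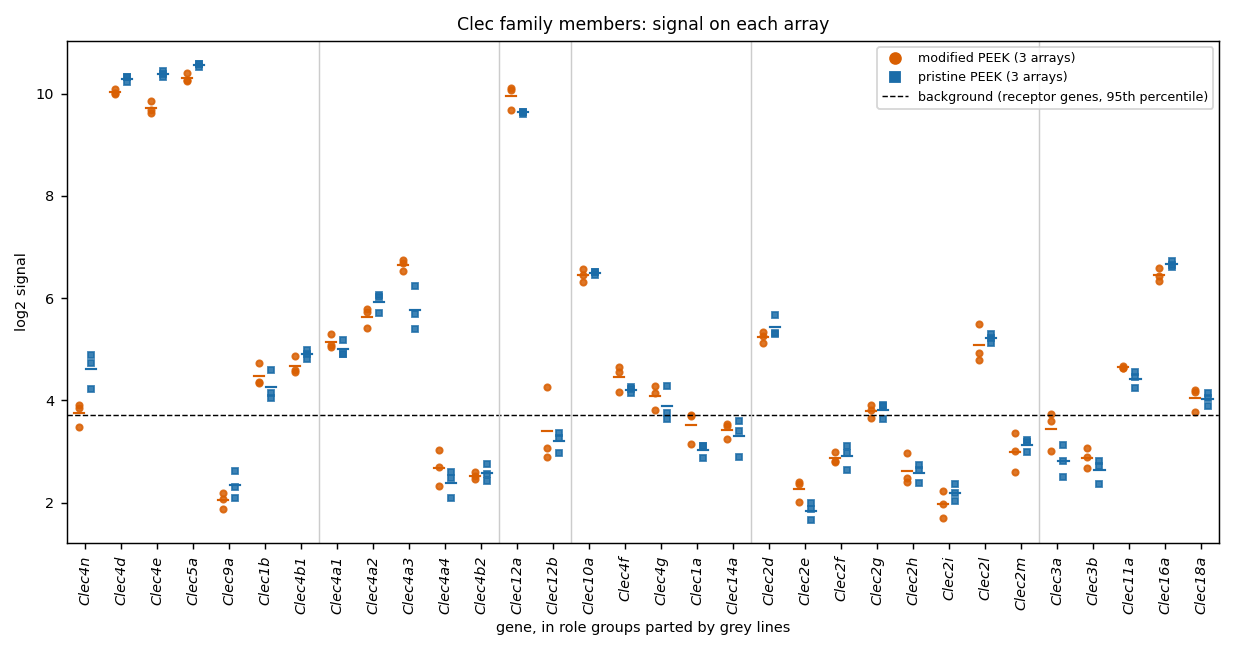
Log2 signal (vertical axis) of the 32 Clec genes on each array, with modified PEEK as orange circles left of pristine PEEK as blue squares, short lines for the 3-array means and a dashed line at the background of 3.72. Clec4e lies lower on all 3 modified PEEK arrays, Clec4n does too at a dim signal, and Clec4a3 lies higher with a wide spread on pristine PEEK.

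Among the 7 activating receptors that couple to Syk, 2 were lower and 0 higher (limma), where 5.15% of all genes were lower. At an unadjusted p under 0.05, 4 were lower and 0 higher, where 11.4% of all genes were lower. The median change of the 7 was -0.26. The 3 modified PEEK arrays lay below the 3 pristine PEEK arrays for 4 of these 7 genes, Clec4e, Clec4n, Clec4d and Clec5a; 14.5% of all genes did so. The group's list mean ran from 6.39 to 6.49 over modified and from 6.73 to 6.79 over pristine PEEK arrays. These groups were drawn up with earlier results of these data known, so their medians and counts are descriptions. Clec4a3 was first listed with the activating receptors and was moved to the Clec4a group after its values were seen; counted here, it would make 1 higher and 2 lower of 8. The mean change over the group is -0.34 without Clec4a3 and -0.18 with it, and the list means with it were 6.41 to 6.53 on modified and 6.60 to 6.69 on pristine PEEK arrays. Scaled to the poly-A spikes on each array, 8.07% of all genes were higher and 1.49% lower, with a median change of 0.26. Of the 7, 0 passed in either direction (limma), with 0 higher and 2 lower unadjusted, and their median change was -0.016.

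Clec4e had log2 signals of 9.86, 9.61 and 9.68 on modified PEEK, against 10.39, 10.43 and 10.31 on pristine PEEK. All 3 modified arrays were lower than any pristine one, at a level far above the background. The change was -0.66 ± 0.10 (SE; 95% interval -0.90 to -0.43; limma adjusted p = 0.00471), and it was -0.61 to -0.73 and passed whichever array was left out. With the spike scaling, which moved the median of all genes to 0.26, the change of Clec4e was -0.41, or -0.67 relative to that median, and did not pass (adjusted p = 0.121).

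Clec4n is dim on this array, with 3.48, 3.86 and 3.91 on modified PEEK against 4.22, 4.88 and 4.73 on pristine PEEK. The groups did not overlap, and 1 of the 3 modified arrays fell below the background, so the mean of 3.75 on modified PEEK is next to it and the fold may be understated. The change was -0.86 ± 0.19 (SE; 95% interval -1.30 to -0.43; limma adjusted p = 0.0239). The call was lost without modified PEEK replicate 1 or 3 or pristine PEEK replicate 2 or 3 (adjusted p up to 0.0880), with an ordinary t statistic (0.143) and with the spike scaling (0.0649). The change itself was -0.73 to -1.06 over the 6 fits that left out 1 array, and -0.62 with the spike scaling, or -0.87 relative to the median of all genes.

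Clec4d (MCL, which pairs with Mincle and the gamma chain) and Clec5a (MDL-1, which signals through DAP12) were both bright and showed smaller differences. Clec4d had 10.08, 9.98 and 10.02 on modified and 10.33, 10.22 and 10.32 on pristine PEEK. Clec5a had 10.26, 10.24 and 10.40 on modified and 10.59, 10.57 and 10.51 on pristine PEEK. Neither pair of groups overlapped, yet neither gene passed over all genes. The change of Clec4d was -0.26 (95% interval -0.47 to -0.06, limma adjusted p = 0.118) and that of Clec5a also -0.26 (-0.47 to -0.04, adjusted p = 0.138). Both passed when the lowest 50% of genes by signal were left out (adjusted p = 0.0262 for Clec4d and 0.0344 for Clec5a). With an intensity trend in limma's variance model, under which 8.81% of all genes were lower, both passed (adjusted p = 0.000677 for Clec4d and 0.000770 for Clec5a). Scaled to the spikes, their changes were -0.016 and -0.0082, or -0.27 and -0.26 relative to the median of all genes.

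The other activating receptors showed no difference that passed. Clec1b (CLEC-2, the platelet receptor for podoplanin) had 4.74, 4.34 and 4.35 on modified and 4.60, 4.15 and 4.04 on pristine PEEK, overlapping groups (adjusted p = 0.551). Clec4b1, a partner of the gamma chain, had 4.86, 4.59 and 4.54 on modified and 4.81, 4.99 and 4.90 on pristine PEEK, also overlapping (adjusted p = 0.281). Clec9a (DNGR-1), a marker of the dendritic cells that take up dead cells, was below background on all 6 arrays.

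The Clec4a group takes its name from the dendritic cell immunoreceptor Clec4a2 (DCIR), an inhibitory receptor, and lies on chromosome 6 beside Clec4b1, Clec4n, Clec4d and Clec4e. Of its 4 members and the neighbour Clec4b2, 1 was higher and 0 lower (limma), and the same at an unadjusted p under 0.05. Of all genes, 5.24% were higher, or 11.3% unadjusted. Clec4a3 had 6.74, 6.69 and 6.53 on modified PEEK, against 5.40, 6.23 and 5.68 on pristine PEEK. The groups did not overlap, though the pristine arrays spread widely (6.66 ± 0.11 on modified and 5.77 ± 0.42 on pristine PEEK; SD, n = 3). Its change was 0.89 ± 0.20 (SE; 95% interval 0.43 to 1.34; limma adjusted p = 0.0250). The size ranged from 0.70 without pristine PEEK replicate 1 to 1.12 without pristine PEEK replicate 2; the call held in the second of these fits and was lost in the first and without modified PEEK replicate 1, 2 or 3 or pristine PEEK replicate 3 (adjusted p up to 0.0879). An ordinary t statistic lost it too (0.148).

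Clec4a2 itself differed the other way without passing, with 5.72, 5.41 and 5.78 on modified and 5.72, 6.07 and 6.01 on pristine PEEK. The change was -0.29 (95% interval -0.62 to 0.03, limma adjusted p = 0.270) and the groups overlapped. Clec4a1 had 5.04, 5.09 and 5.29 on modified and 4.91, 4.90 and 5.18 on pristine PEEK (adjusted p = 0.550). The inhibitory receptor gene Clec4a4 (DCIR2) and Clec4b2 were below background on all 6 arrays. The Clec4a genes are close relatives, and signal shared between their probe sets was not tested.

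**Figure D2:**
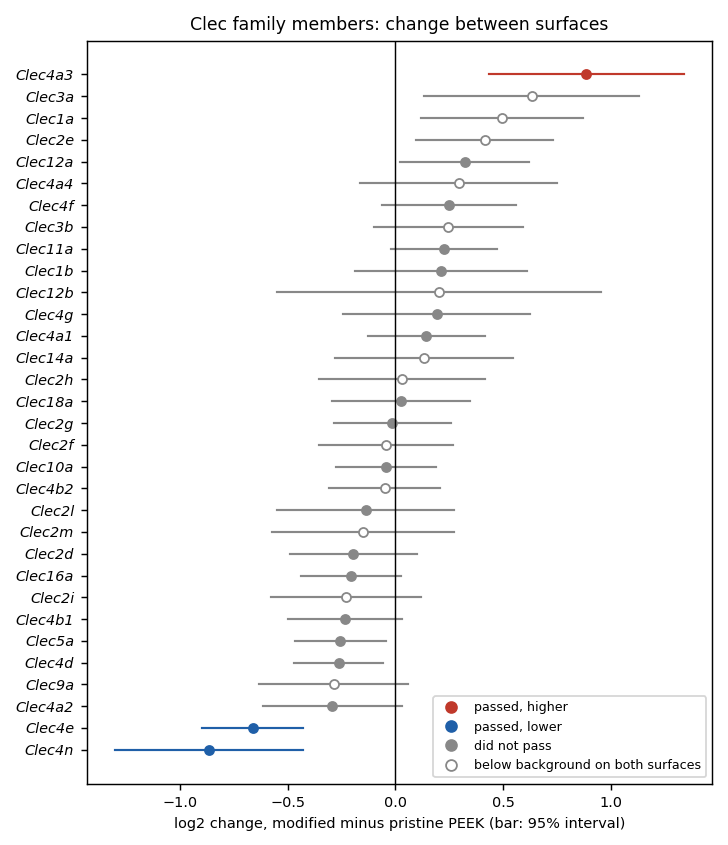
Log2 change of each of the 32 Clec genes (modified minus pristine PEEK, horizontal axis) with its 95% interval, ordered by size. Clec4a3 at 0.89 passed as higher, Clec4e at -0.66 and Clec4n at -0.86 passed as lower, grey genes did not pass and open symbols were below background on both surfaces.

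Of the Clec12 group, Clec12a (MICL, an inhibitory receptor that senses uric acid crystals) was bright, with 9.67, 10.07 and 10.11 on modified and 9.61, 9.65 and 9.64 on pristine PEEK. Every modified array was above every pristine one, by little in the case of replicate 1. The change of 0.32 (95% interval 0.02 to 0.62) did not pass (limma adjusted p = 0.187), but did with an intensity trend, under which 8.13% of all genes were higher (0.00584), and without modified PEEK replicate 1 (0.46, adjusted p = 0.0255). Clec12b, a related inhibitory receptor, was below background except on modified PEEK replicate 2 (4.26, where the other modified arrays had 2.88 and 3.06). Of these 2 genes 0 passed (limma), beside 10.4% of all genes, and 1 had an unadjusted p under 0.05, beside 22.7%.

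None of the 5 endocytic and adhesion receptors passed (limma), beside 10.4% of all genes, and 1 had an unadjusted p under 0.05, beside 22.7%. Clec10a (MGL1, the galactose-type lectin often used as a marker of alternatively activated macrophages) had 6.44, 6.57 and 6.31 on modified and 6.45, 6.51 and 6.51 on pristine PEEK. Its change was -0.05 with a 95% interval of -0.28 to 0.19, so a difference beyond 0.28 in either direction lies outside that interval. Clec4f, the Kupffer cell receptor, had 4.54, 4.64 and 4.17 on modified and 4.22, 4.14 and 4.25 on pristine PEEK (adjusted p = 0.335). Clec4g (LSECtin, of liver sinusoidal endothelium) had 3.81, 4.28 and 4.15 on modified and 3.75, 3.64 and 4.27 on pristine PEEK (adjusted p = 0.629). Both are near the background and their groups overlapped. Clec1a and the endothelial gene Clec14a were below background on both surfaces. Clec1a had means of 3.52 and 3.03 on modified and pristine PEEK (limma adjusted p = 0.109). Its groups were apart by little, with the lowest modified array at 3.15 and the highest pristine one at 3.11. Clec1a passed as higher with the spike scaling (0.0188), with array weights (0.0442) and without modified PEEK replicate 2 (0.0144).

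The Clec2 family encodes lectin-like surface proteins, several of which are ligands for receptors of natural killer cells. Of 8 genes, 0 passed (limma), beside 10.4% of all genes, and 1 had an unadjusted p under 0.05, beside 22.7%. Above background on both surfaces were 3. Clec2d, a ligand of the inhibitory natural killer receptor Klrb1b, had 5.11, 5.34 and 5.26 on modified and 5.29, 5.32 and 5.67 on pristine PEEK (adjusted p = 0.442). Clec2l had 4.79, 5.50 and 4.93 on modified and 5.29, 5.23 and 5.12 on pristine PEEK (adjusted p = 0.726). Clec2g, at the background, had 3.91, 3.82 and 3.66 on modified and 3.91, 3.63 and 3.89 on pristine PEEK (adjusted p = 0.967). In all 3 the groups overlapped. The other 5, Clec2e, Clec2f, Clec2h, Clec2i and Clec2m, were below background on every array.

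The last 5 members are secreted or act inside the cell. Of them 0 passed (limma), beside 10.4% of all genes, and 1 had an unadjusted p under 0.05, beside 22.7%. Clec16a, an intracellular regulator of mitophagy rather than a surface lectin, had 6.59, 6.34 and 6.44 on modified and 6.66, 6.72 and 6.61 on pristine PEEK, without overlap (change -0.21, adjusted p = 0.282). Clec11a, a secreted growth factor that acts on blood progenitors and bone, had 4.63, 4.67 and 4.64 on modified and 4.25, 4.56 and 4.45 on pristine PEEK, also without overlap (0.23, adjusted p = 0.260). Clec18a had 3.78, 4.21 and 4.17 on modified and 4.04, 4.15 and 3.89 on pristine PEEK (adjusted p = 0.945). The groups of Clec18a overlapped, close to the background. The cartilage gene Clec3a and the plasminogen-binding tetranectin gene Clec3b were below background on both surfaces. For Clec3a the change of 0.63 (95% interval 0.13 to 1.13) did not pass (adjusted p = 0.120), and passed with an intensity trend (0.0327), with the spike scaling (0.0401) and without modified PEEK replicate 3 (0.0482).

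The 13 members below background had changes from -0.29 to 0.63 and adjusted p-values of 0.109 or higher. Across the whole family 10 of 32 members had groups that did not overlap, 5 higher and 5 lower, beside 28.8% of all genes (14.3% higher and 14.5% lower). An unadjusted p under 0.05 was found for 9 members, 5 higher and 4 lower, beside 22.7% of all genes (11.3% higher and 11.4% lower). Both shares of the family are near the background.

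**Figure D3:**
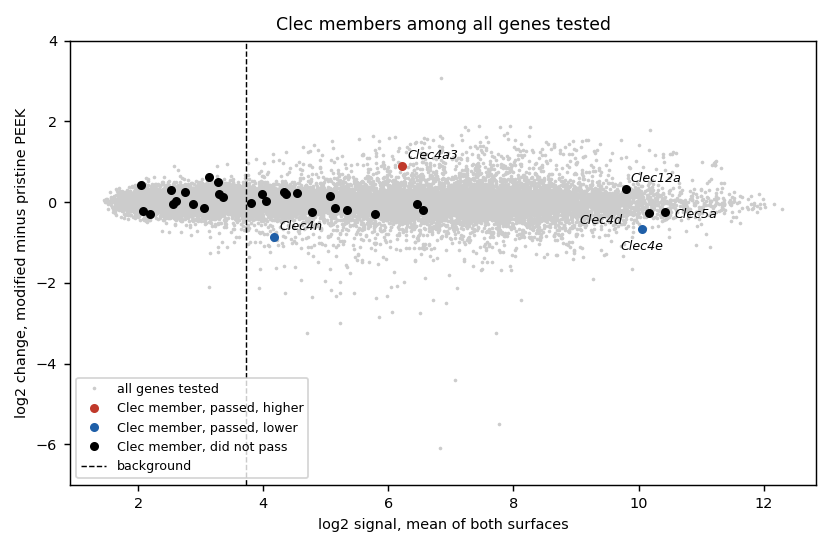
Log2 change (modified minus pristine PEEK, vertical axis) against the mean log2 signal of both surfaces for all 19505 genes in grey, with the 32 Clec genes as large points and the background as a dashed line. The members lie within the cloud of all genes, between -0.86 (Clec4n) and 0.89 (Clec4a3).

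Position was a property that the choice of members did not use. All 32 members were matched by gene identifier to RefSeq, and 24 lie on chromosome 6, with 3 on chromosome 8 and 1 each on 5 others. The longest run of neighbours among protein-coding genes holds 9 members in the order Clec4a1, Clec4a3, Clec4a4, Clec4b1, Clec4a2, Clec4b2, Clec4n, Clec4d and Clec4e. The 3 genes that passed all lie in this run, and 0 of the 23 members outside it passed (limma). In other fits members outside it did pass. They were Clec12a, Clec3a and Clec5a with an intensity trend, and Clec1a and Clec3a with the spike scaling. Clec12a, Clec1a and Clec3a passed where modified PEEK replicate 1, 2 and 3 in turn was left out. Of the 13 members below background on both surfaces, only Clec4a4 and Clec4b2 lie in the run. Outside it, 5 had an unadjusted p under 0.05. Over all genes tested, 10.4% passed and 22.7% had an unadjusted p under 0.05. Of the 3 calls, only that of Clec4e held whichever array was left out. Within the run 6 genes had negative and 3 positive values. The positive ones were Clec4a1, which did not pass, Clec4a3, and Clec4a4, which was below background. The 6 genes after them in order were negative, and of these Clec4n and Clec4e passed, while Clec4b2 (-0.050) was below background. With the spike scaling, where the median of all genes was 0.26, Clec4b1 (0.012) and Clec4b2 (0.20) were positive. Clec4a2, Clec4n, Clec4d and Clec4e stayed negative. Whether the run differs from other parts of the chromosome was not tested. A second run of 6 members, from Clec2m through Clec12a, Clec12b, Clec1b and Clec9a to Clec1a, held no gene that passed in the fit reported here.

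**Figure D4:**
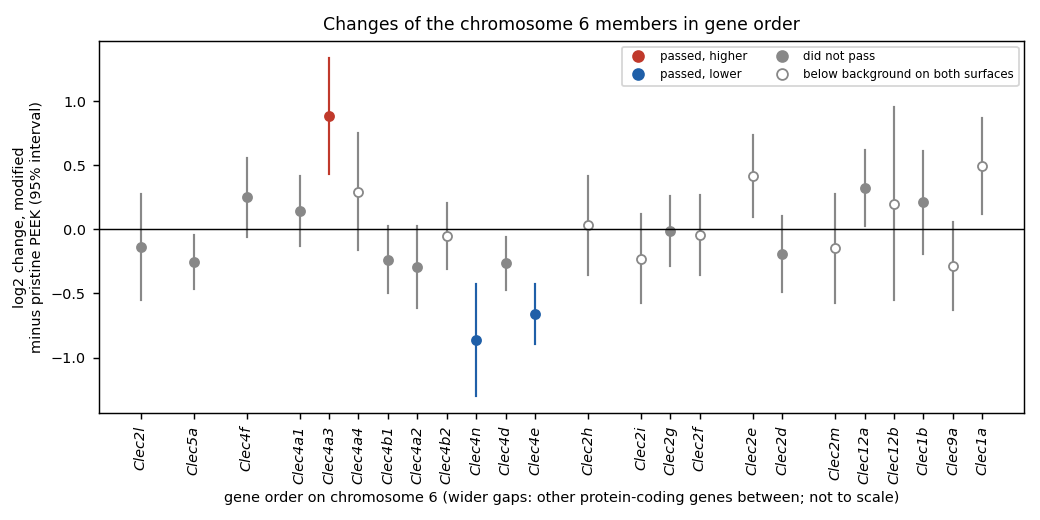
Log2 change with 95% interval (modified minus pristine PEEK, vertical axis) of the 24 Clec genes on chromosome 6 in gene order, with wider gaps where other protein-coding genes lie between. Clec4a3 at 0.89 and Clec4n and Clec4e at -0.86 and -0.66 stand in the run of 9 neighbours.

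Genes of the receptors' adaptors and of Syk and Card9 signalling were called in both directions, in numbers that depended on the scaling. Of 34 measured, 5 were higher and 5 lower, with a median change of -0.03, and all 34 were above background on both surfaces. The genes called in this fit are 29.4% of the list beside 10.4% of all genes, of which 67.8% were above background on a surface. With genes below background on both surfaces left out, 2660 of the 13229 genes that remained passed, and 10 of the 34 in this list. The number called was 4 without pristine PEEK replicate 2 or 3. Scaled to the spikes, 6 of the 34 were higher and 1 lower, with a median of 0.21. Under that scaling 8.07% of all genes were higher and 1.49% lower, with a median of 0.26. Fcer1g, Tyrobp, Syk and Card9, the core of the pathway, did not pass as reported here. The gamma chain gene Fcer1g had 11.36, 11.39 and 11.37 on modified and 11.63, 11.61 and 11.62 on pristine PEEK, without overlap (change -0.24, 95% interval -0.44 to -0.05, limma adjusted p = 0.125). Syk had 7.67, 7.62 and 7.50 on modified and 7.91, 7.79 and 7.83 on pristine PEEK, without overlap (-0.24, adjusted p = 0.167). Fcer1g passed without the lowest 50% of genes (0.0255), with an intensity trend (2.9e-05) and with an ordinary t statistic (0.00818), and Syk without the lowest 50% of genes (0.0461). With the spike scaling the differences were 0.0046 for Fcer1g and 0.0028 for Syk, where the median of all genes was 0.26. Tyrobp (DAP12) had 10.25, 10.14 and 10.18 on modified and 9.98, 10.19 and 10.13 on pristine PEEK, and Card9 had 8.09, 7.86 and 8.12 on modified and 7.89, 8.13 and 8.11 on pristine PEEK. In both the groups overlapped (adjusted p = 0.655 and 0.944).

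The largest fall in this list was that of Src, a kinase that phosphorylates activation motifs, with 5.08, 5.09 and 4.56 on modified against 5.83, 5.80 and 6.26 on pristine PEEK (2.08-fold lower, adjusted p = 0.00814). Cblb, a ubiquitin ligase that limits Syk-coupled receptors, had 7.10, 7.13 and 7.21 on modified against 8.08, 7.70 and 7.79 on pristine PEEK (1.64-fold lower, adjusted p = 0.00686). The groups of both genes were apart; scaled to the spikes, Src still passed (0.0244) and Cblb did not (0.139). Rasgrp3, an activator of Ras, had 9.74, 9.67 and 9.77 on modified against 9.09, 9.02 and 9.03 on pristine PEEK (1.60-fold higher, adjusted p = 0.00207) and passed in every alternative run. Nfatc2, a calcium-regulated transcription factor, rose 1.46-fold (adjusted p = 0.0109), and did not pass when pristine PEEK replicate 1 or 2 was left out (up to 0.0504). Members that fell by less were Relb (-0.50), Lcp2 (-0.44) and Rela (-0.34), and members that rose by less were Blnk (0.48), Ptpn6 (0.40), encoding the phosphatase SHP-1, and Inpp5d (0.40), encoding the phosphatase SHIP-1. The calls for Rela and Ptpn6 were lost in each of the 6 fits that left out 1 array (adjusted p up to 0.166 for Rela and 0.139 for Ptpn6). Those for Lcp2 and Inpp5d held in 1 of these fits each, for Lcp2 without modified PEEK replicate 1 and for Inpp5d without modified PEEK replicate 3 (otherwise up to 0.0899 and 0.0979). Blnk did not pass when pristine PEEK replicate 2 or 3 was left out (up to 0.0871), nor Relb when replicate 3 was (0.0505). Scaled to the spikes, Relb (0.308), Lcp2 (0.407) and Rela (0.682) did not pass.

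**Figure D5:**
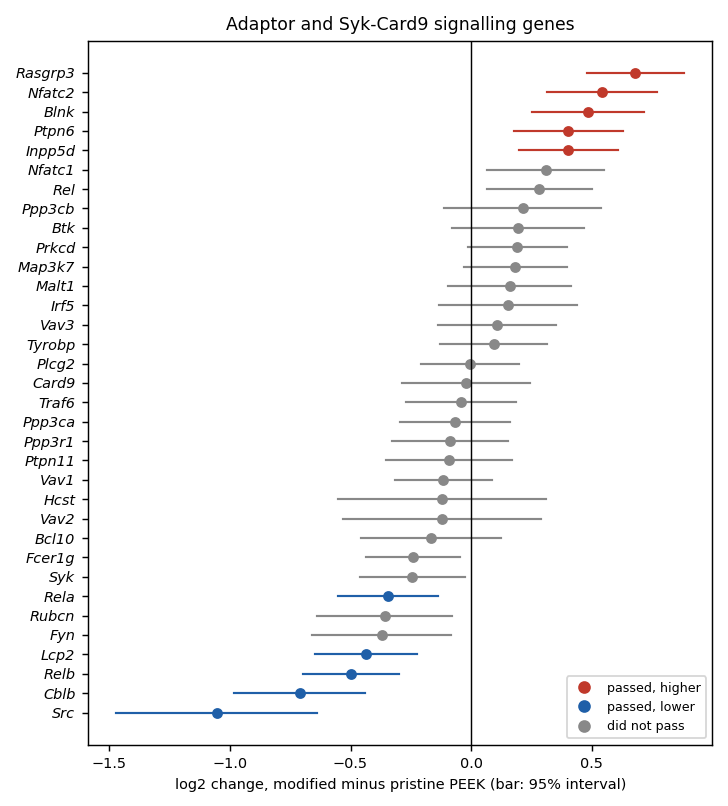
Log2 change with 95% interval (modified minus pristine PEEK, horizontal axis) of the 34 adaptor and signalling genes, ordered by size, with genes that passed as higher in red and as lower in blue. Src at -1.05 and Rasgrp3 at 0.68 mark the ends, and Fcer1g, Tyrobp, Syk and Card9 lie between them in grey.

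Genes with a lectin-type domain but no Clec symbol were counted for comparison. Of 42 measured, 3 were higher and 2 lower, with a median change of 0.07; 11.9% of the list passed, near the 10.4% of all genes. Scaled to the spikes, 4 were higher and 1 lower. Cd72, an inhibitory receptor of B cells that is bright in these cells, had 10.78, 10.63 and 10.67 on modified against 9.85, 9.92 and 9.83 on pristine PEEK (1.77-fold higher, limma adjusted p = 0.00108). Layn, a hyaluronan receptor, had 6.82, 6.24 and 6.58 on modified against 7.87, 7.49 and 7.80 on pristine PEEK (2.26-fold lower, adjusted p = 0.00309). Both genes had groups well apart and passed in all 6 fits that left out 1 array. The endocytic receptor gene Cd302 rose 1.74-fold (adjusted p = 0.0144), with the call lost without modified PEEK replicate 1 or 3 or pristine PEEK replicate 1 (up to 0.0631). The gene of the mannose receptor, Mrc1, was called higher although both means were below background (3.71 on modified and 2.81 on pristine PEEK), so no fold is given. Cd93 passed as lower next to the background, at 3.80 on modified and 4.25 on pristine PEEK. With 1 array left out, the call of Mrc1 held only without pristine PEEK replicate 2 and that of Cd93 only without modified PEEK replicate 1 (otherwise up to 0.131 and 0.146). Colec12, a scavenger receptor of high signal (10.25 on modified and 10.13 on pristine PEEK), and Fcer2a, the low-affinity IgE receptor (5.45 on modified and 5.46 on pristine PEEK), did not pass.

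Killer cell lectin-like receptors share the chromosome 6 region and are mainly genes of natural killer cells. Of 25 measured, 23 were below background on both surfaces, 1 was higher and 1 lower, beside 10.4% of all genes called. Klra2, a member of the Ly49 receptor genes, had 4.49, 4.26 and 4.61 on modified against 4.99, 5.38 and 5.62 on pristine PEEK (1.83-fold lower, limma adjusted p = 0.0138), groups that did not overlap. Leaving out pristine PEEK replicate 2 ended the call (adjusted p = 0.0507). Klra5 passed as higher with means of 2.62 on modified and 2.18 on pristine PEEK, both below background, so no fold is given; with 1 array left out, it passed only where that array was modified PEEK replicate 2 (otherwise up to 0.0949). Klrg2 was the one with the highest signal among those that did not pass (6.95 on modified and 6.99 on pristine PEEK).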

How the data were processed

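Per the labels' protocols, the cells were lysed in Trizol and 250 ng of total RNA yielded the biotinylated cDNA put on each array. The authors deposited 1 value per probe set and array, on the log2 scale; RMA is named in the submitters' processing notes, with no version or role. That scale was taken from their range, 0.941 to 12.4. If arrays were brought to equal quantiles, a shift of all transcripts together is hidden from this comparison. Of 29129 features, 19572 probe sets had 1 gene symbol, 0 had several, and 2634 transcript probe sets had none; for genes with more than 1, the brightest on average stood for the gene, leaving 19505 genes. Columns of per-sample values left unused numbered 0.

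The test was that of limma 3.58.1 (R 4.3.3), two-sided, by eBayes with no intensity trend on 4 residual and 4.09 prior degrees of freedom, with p-values adjusted by the Benjamini-Hochberg method over all genes and a threshold of 0.05. The procedure was also run on simulated normal values. There the spreads were shuffled over genes, so a relation between spread and signal was not covered. Per-array values are given for members that passed or lay above background; each other list was to give at most 4 genes that passed, by size of change, and at most 2 that did not, by signal, with Fcer1g, Tyrobp, Syk and Card9 in any case; other genes that passed were added after their values were seen. Members, lists, role groups and alternatives were chosen with earlier results of these data known. The grouping by role rests on general knowledge; Clec4a3, whose role is less sure, was put with the Clec4a group after its values were seen. Promoter windows and gene order are from RefSeq tables of GRCm38.p6. Alternatives were other scalings, filters on dim genes, treatments of probe sets, variance models, the replicate number as a block, and each array left out.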

Additional observations from a re-analysis of the deposited data

How the results depend on the processing

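The counts moved more than the directions. With an intensity trend 3305 genes passed (3282 with robust fitting), and in both fits 3 Clec genes were higher and 4 lower. Scaled to the spikes, 3 were higher and 0 lower (limma; 10 and 2 at an unadjusted p under 0.05); with array weights 2 were higher; with an ordinary t statistic 0 were higher and 1 lower (1 and 4 unadjusted). Signalling genes that passed numbered 16 of the 33 tested without the lowest 50% of genes, where 2991 of the brighter 50% of all genes passed. Other lectin-domain genes numbered 3 of 42 after quantile normalization again (2314 of 19505 genes) and 1 of 42 with an ordinary t statistic (1548 of 19505). Without the lowest 50% of genes, 3 of the 7 of them tested passed. Killer cell lectin-like receptors numbered 1 of the 3 tested without the lowest 25% of genes, where 2450 genes passed. They numbered 1 of the 2 tested without genes below background on both surfaces, where 2660 of 13229 genes passed. With an ordinary t statistic 1 of 25 passed, and without the lowest 50% 0 of the 1 tested (0 also unadjusted).

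The replicate numbers did not pair the arrays (correlations of deviations -0.17, -0.16 and 0.068). With the replicate block 1268 of 19505 genes passed, with 5 signalling, 3 other lectin-domain and 1 killer cell receptor gene. The Clec counts stayed at 1 higher and 2 lower. Genes that then did not pass were Rela (adjusted p = 0.146), Blnk (0.0507), Lcp2 (0.0733), Inpp5d (0.0901), Ptpn6 (0.0900), Mrc1 (0.0621), Cd93 (0.105) and Klra5 (0.0860).

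Leaving out 1 array gave 1142 to 1863 of 19505 genes, with 0 to 1 Clec genes higher and 1 to 2 lower. Signalling genes then numbered 4 to 8, other lectin-domain genes 2 to 4 and killer cell receptors 0 to 2. The Clec count higher was 0 when pristine PEEK replicate 1 or 3 was left out (5 and 4 at an unadjusted p under 0.05). The 1 higher gene was not the same throughout: it was Clec12a, Clec1a and Clec3a where modified PEEK replicate 1, 2 and 3 in turn was left out, and Clec4a3 for pristine PEEK replicate 2. The count lower was 1 without modified PEEK replicate 1 or 3 or pristine PEEK replicate 2 or 3. The number of all genes that passed was 1863, 1663 and 1300 where modified PEEK replicate 1, 2 or 3 in turn was left out. It was 1241, 1239 and 1142 where pristine PEEK replicate 1, 2 or 3 in turn was left out. Signalling genes numbered 6 when modified PEEK replicate 2 was left out, 5 for pristine PEEK replicate 1 and 4 for pristine PEEK replicate 2 or 3. Other lectin-domain genes numbered 3 when modified PEEK replicate 2 or pristine PEEK replicate 3 was left out, and 2 when modified PEEK replicate 3 or pristine PEEK replicate 1 was. Killer cell receptors numbered 1 without modified PEEK replicate 1 or 3 or pristine PEEK replicate 1 or 3, and 0 without pristine PEEK replicate 2 (1 higher and 1 lower unadjusted). With an ordinary t statistic Src (adjusted p = 0.0847), Layn (0.0532), Cd302 (0.0985) and Klra2 (0.103) did not pass.

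Among Clec genes above background, sign changes occurred in genes that did not pass. Scaled to the spikes the changes were 0.20 for Clec10a, 0.041 for Clec16a, 0.052 for Clec2d, 0.23 for Clec2g, 0.11 for Clec2l and 0.012 for Clec4b1. The median change of all genes was 0.26 under that scaling. Without 1 array they ran from -0.11 to 0.021 for Clec10a, -0.052 to 0.16 for Clec18a, -0.10 to 0.056 for Clec2g and -0.35 to 0.0051 for Clec2l. Clec4e and Clec4a3 kept their sign in all 19 alternatives and Clec4n in the 18 that tested it; it was among the genes removed with the lowest 50%. Where no cause is shown by the alternative itself, the cause was not tested. Signal next to the background limits Clec4n and the 13 members below it.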
